A study of Mus musculus with 4 samples.

Results

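The gamma-delta T17-like cells described here were picked by transcript counts among lymphocytes sorted from the small intestine as group 3 innate lymphoid cells (ILC3). Whether each of them is a T cell was not tested. A cell was counted as one when it had at least 1 count of Trdc, which encodes the constant region of the T-cell receptor delta chain, and at least 1 count of Cd163l1, Blk or Trdv4, with no count of Cd8a or Cd4. The members were thus chosen by measured counts of these 6 genes. Of the 10043 cells kept, each with 300 or more genes detected and less than 20% of its counts from mitochondrial genes, 470 met this rule: 336 of 5054 in replicate 1 (6.65%, Wilson 95% interval 5.99 to 7.37) and 134 of 4989 in replicate 2 (2.69%, 2.27 to 3.17). The rule was chosen with results of these cells known, so the genes in it are described here and not tested. Il17a and Tcrg-C1 were given beside 4 genes of the rule as markers of this cell type. Their tests below are thus no independent support for the name.

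The series is titled for Cxxc finger protein 1 in intestinal ILC3 and ageing. The cells used here are its control cells, from the small intestine of C57BL/6 mice aged 6 to 8 weeks, with no treatment or engineered allele named, so no condition is compared. The cells of several samples were marked with sample tags, pooled and captured on the BD Rhapsody system, and each replicate pairs a tag library with a whole transcriptome library. Replicate 1 was deposited as reads per gene and cell and replicate 2 as molecules, so their levels are not compared with each other. Neither the sort antibodies nor the number of animals behind a replicate is given in the labels.

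Gamma-delta T cells carry a T-cell receptor built from gamma and delta chains instead of alpha and beta chains. Those that make interleukin-17 (IL-17) are set for this task in the thymus before birth or soon after it, and they answer IL-1 and IL-23 from myeloid cells without a first encounter with antigen. The transcription factors SOX13, PLZF and c-MAF have been linked to their development, and they populate skin, lung, gut and other barrier tissues.

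To place them, 3 kinds of cells of the same libraries were gated. The CD4 T gate held cells with Cd4 and Trac but no Trdc or Cd8a (691 in replicate 1 and 757 in replicate 2). The CD8 T gate held cells with Cd8a and Trac but no Trdc or Cd4 (306 and 115). The ILC3 gate held cells with an ILC3 marker gene and no count of Cd3d, Cd3e, Cd3g, Trac or Trdc (637 and 1881). Median depth was 4603.5 reads per gamma-delta T17-like cell in replicate 1, against 4675, 5537 and 5361 in the CD4 T, CD8 T and ILC3 gates. In replicate 2 it was 1751 molecules, against 2096, 2215 and 2623. Their median number of detected genes was 1014 and 947.

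Libraries of a pooled capture carry free RNA that gives counts in cells that do not express a gene. Beside the shares below, the CD8 T gate therefore serves as a background for type 17 genes. A gate of stromal cells with at least 3 of the collagen and matrix genes Col1a1, Col1a2, Col3a1 and Dcn (384 and 62 cells, median 9605 reads and 5028 molecules) serves as a background for lymphocyte genes. The stromal cells were deeper than the gamma-delta T17-like cells, so these shares are not matched for depth. All intervals of shares are Wilson 95% intervals and cover counting error only. In replicate 1, several reads can come from 1 molecule.

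The genes of the rule mapped the cells as follows. Cd163l1, which encodes the scavenger receptor SCART1 of IL-17-producing gamma-delta T cells, had a count in 62.8% of the cells in replicate 1 and 87.3% in replicate 2, against 2.40% and 1.42% of all other kept cells. Blk, a SRC-family kinase gene expressed in B cells and in these T cells, was found in 74.7% and 62.7%, against 3.96% and 4.45%. Trdv4, the delta variable segment that is joined with gamma variable segment 6 in fetal-derived cells, was found in 37.8% and 61.9%, against 1.10% and 0.989%.

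Most of the cells carried more than the 1 marker the rule asked for beside Trdc. In replicate 1, 157 cells had 1 of the 3 markers, 105 had 2 and 74 had all 3 (22.0% of the cells). In replicate 2 the numbers were 35, 48 and 51 (38.1%). Cells with Blk as the only marker were 98 in replicate 1 (29.2%) and 7 in replicate 2 (5.22%), so the makeup by marker differed between the replicates. Blk is also the marker with the highest share in the ILC3 gate, 6.75% and 6.11%.

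**Figure D1:**
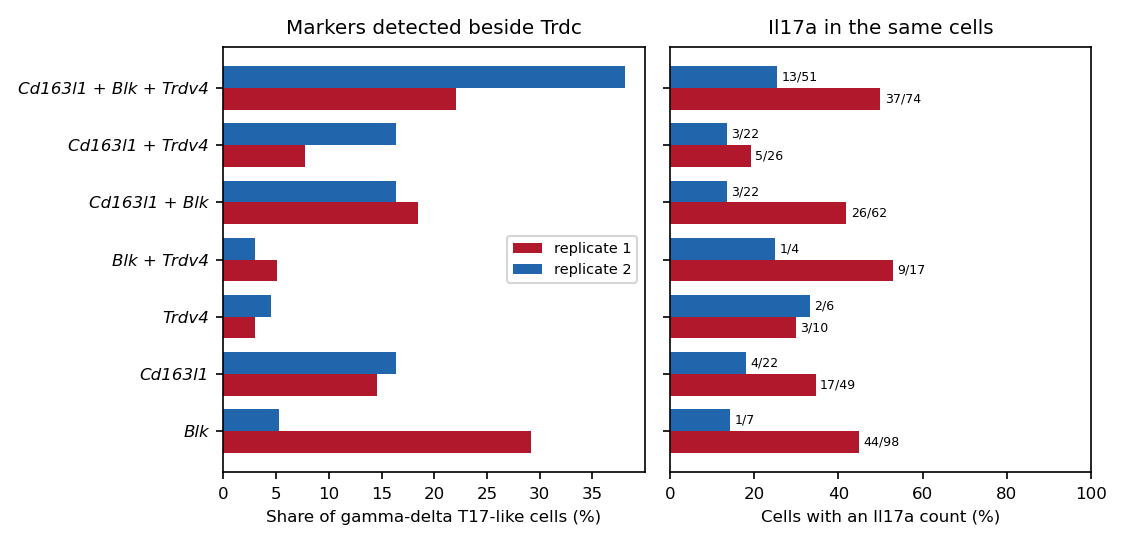
Left, share of the gamma-delta T17-like cells (x axis, %) by which of Cd163l1, Blk and Trdv4 had a count beside Trdc; right, share of each combination with an Il17a count (x axis, %), with the number of Il17a-positive cells over all cells of that combination printed at the bar; red, replicate 1 (336 cells); blue, replicate 2 (134 cells). Blk alone is the largest combination in replicate 1 with 98 cells, all 3 markers together the largest in replicate 2 with 51 cells.

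The cells just inside and just outside the rule were as follows. A single count of Trdc brought in 21 of the cells in replicate 1 and 12 in replicate 2, and 76.2% and 66.7% of these had a Tcrg-C1 count, against 86.3% and 92.6% of those with 2 or more Trdc counts. Just outside, 151 and 36 cells had Trdc without any of the 3 markers, and 58.3% and 63.9% of these had Tcrg-C1 while 17.9% and 8.33% had Il17a. Another 260 and 223 cells had a marker without Trdc. The absence of Cd8a removed 9 and 5 cells, and that of Cd4 removed 5 and 4.

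The cells carried the transcripts of a gamma-delta receptor. Tcrg-C1 is a gamma constant gene given as a marker of the cell type but not used by the rule (chr13:19214103-19217024 on GRCm38). It had a count in 85.7% (81.6 to 89.1) of the cells in replicate 1 and 90.3% (84.1 to 94.2) in replicate 2. The CD4 T gate had 7.38% and 23.9%, the CD8 T gate 9.48% and 21.7%, the stromal gate 8.07% and 25.8%, and the ILC3 gate 53.4% and 76.8%. The shares of the CD4 T, CD8 T and stromal gates lay within a few percentage points of one another in each replicate, whereas the ILC3 gate stood well above them. With each cell thinned to 1500 counts, 71.3% and 87.5% of the gamma-delta T17-like cells and 35.0% and 63.0% of the ILC3 gate kept a Tcrg-C1 count.

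The level of Tcrg-C1 rose in both replicates against every gate. The log2 fold change was 3.57 (SE 0.36) against the CD4 T gate, 4.04 (SE 0.38) against the CD8 T gate and 1.38 (SE 0.32) against the ILC3 gate (edgeR quasi-likelihood F test, Benjamini-Hochberg adjusted p 5.86e-05, 3.23e-05 and 0.0165). Across each of these 3 comparisons 9892 genes were tested with the replicate as a block, and 9.84% of them passed an adjusted p of 0.05 against the CD4 T gate (5.23% higher, 4.61% lower), 11.0% against the CD8 T gate (7.14% and 3.82%) and 9.35% against the ILC3 gate (4.35% and 5.0%). No label ties the replicates to separate animals, so these p-values measure only the spread between the samples at hand, which may be technical.

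Other gamma chain genes split the gates differently. Tcrg-C4 was found in 40.2% and 40.3% of the cells, against 3.47% and 4.49% of the CD4 T gate, 15.7% and 25.2% of the CD8 T gate, and 17.3% and 15.3% of the ILC3 gate, and it rose against all 3. Tcrg-C2 was found in 34.2% and 25.4%, and in 26.8% and 53.0% of the CD8 T gate, from which it did not differ past the threshold (log2 fold change -0.14, edgeR adjusted p 0.901). Against the ILC3 gate, where it was found in 0.942% and 2.55% of cells, it rose by 5.42 on the log2 scale (edgeR adjusted p 0.000138). That gate held no cell with Cd3d, Cd3e, Cd3g, Trac or Trdc. A rise of another receptor chain gene against it was thus partly set by the gate. Tcrg-C1 and Tcrg-C2 are near-identical in sequence, so the authors' counting could have divided reads between them.

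Variable segments were detected in few cells. Tcrg-V6, the gamma segment that pairs with Trdv4, had a count in 18 of 336 and 13 of 134 cells (5.36% and 9.70%), against 5 of 4718 and 7 of 4855 other kept cells. Of those 18 and 13 cells, 12 (66.7%) and 11 (84.6%) also had Trdv4, compared with 37.8% and 61.9% of all the gamma-delta T17-like cells. Tcrg-V4 was seen in 6 and 0 cells, which for 0 of 134 allows a share of up to 2.24%. Of 21 listed gamma and delta variable segments, 11 were in the tables. Of the 5 tested against all other kept cells 3 rose and none fell, beside 3.19% and 8.4% of all genes tested there.

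The CD3 chains that carry any T-cell receptor to the surface were present too. Cd3e was found in 73.8% and 70.1% of the cells, below the 78.9% and 82.7% of the CD4 T gate and the 82.4% and 93.0% of the CD8 T gate. Cd247, the gene of the CD3 zeta chain, was found in 43.5% and 37.3%, against 32.6% and 20.6% of the CD4 T gate, 25.2% and 19.1% of the CD8 T gate and 0.942% and 0.425% of the ILC3 gate. Its level was the highest in the gamma-delta T17-like cells in each replicate. The log2 fold changes were 1.04 (SE 0.22), 1.59 (SE 0.24) and 6.87 (SE 0.30), with edgeR adjusted p-values of 0.00814, 0.000966 and 1.25e-07. The ILC3 gate leaves out cells with Cd3d, Cd3e or Cd3g, so the last of these was partly set by the gate. Of the 10 tested CD3 and receptor constant chain genes, 9 rose and 1, Trac, fell against all other kept cells, with a median log2 fold change of 1.59 beside -0.12 over all 11578 genes tested. In that comparison 11.6% of genes passed, 3.19% higher and 8.4% lower.

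Transcripts of alpha-beta chains were not absent. Trac was found in 14.3% and 17.2% of the cells, against 12.0% and 11.3% of the deeper stromal gate. In replicate 1 the interval (10.9 to 18.4) covers the share of that gate. Trbc1 was found in 44.6% and 49.3%, and Trbc2 in 73.8% and 76.9%, above the stromal gate's 18.2% and 29.0% for Trbc2 and the ILC3 gate's 45.1% and 40%. Neither beta constant gene differed past the threshold from the CD4 T gate (edgeR adjusted p 0.823 and 0.252). Against the CD8 T gate, with 95.1% and 88.7%, Trbc2 fell by 0.67 (SE 0.15, edgeR adjusted p 0.0127), and Trbc1 did not pass the threshold (0.35, edgeR adjusted p 0.478). Cells with a Trac count had Tcrg-C1 in 89.6% and 95.7% of cases and Cd163l1 in 66.7% and 87.0%. Their median depth was 4974.5 reads and 1785 molecules, near that of all the gamma-delta T17-like cells.

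**Figure D2:**
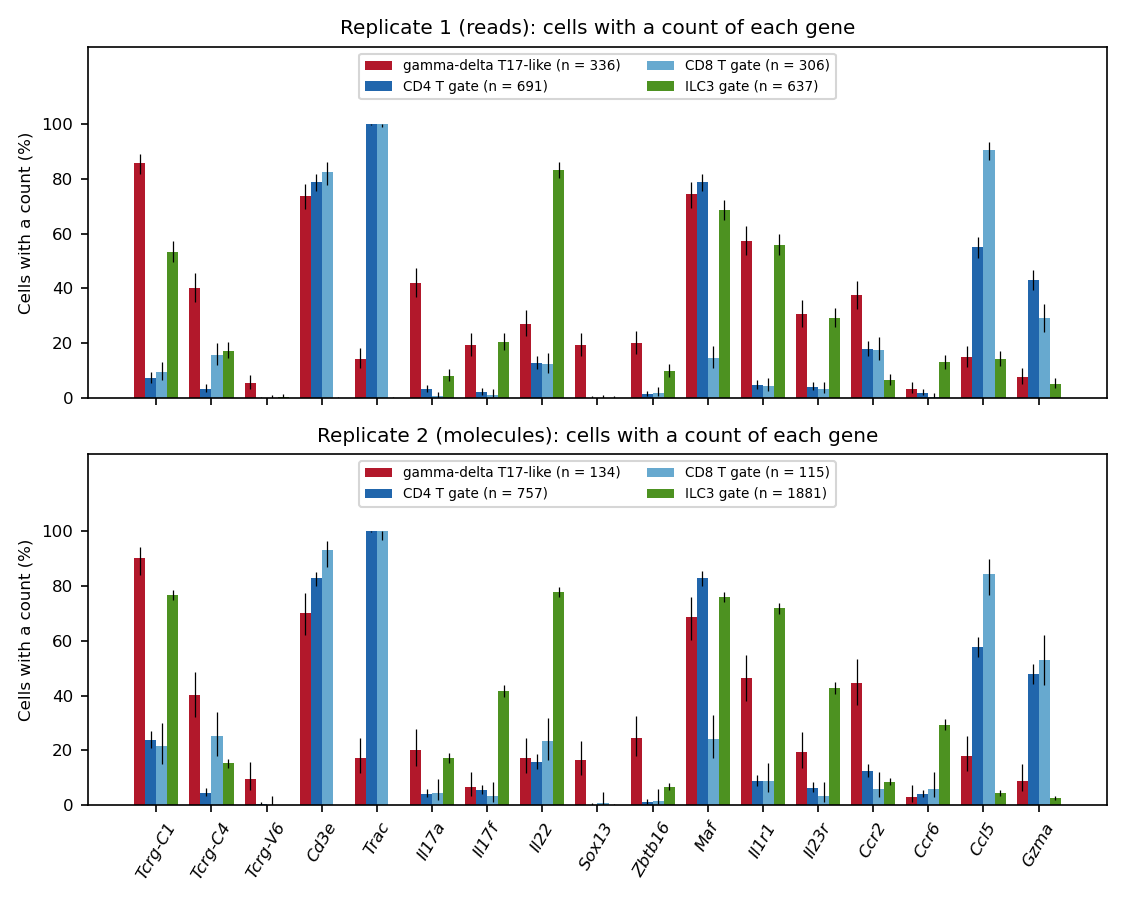
Share of cells with a count of each gene (y axis, %; bars start at 0) in the gamma-delta T17-like cells and the CD4 T, CD8 T and ILC3 gates, for replicate 1 (reads, top) and replicate 2 (molecules, bottom); lines are Wilson 95% intervals, Trac is at 100% or 0% where it defines a gate. Tcrg-C1, Sox13, Zbtb16 and Ccr2 stand highest in the gamma-delta T17-like cells in both replicates, and Il22 and Ccl5 stand highest in the ILC3 and CD8 T gates.

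Il17a, the gene of the cytokine that recruits neutrophils and strengthens the epithelial barrier, was made by a part of the cells. It had a count in 141 of 336 cells in replicate 1 (42.0%, 36.8 to 47.3) and 27 of 134 in replicate 2 (20.1%, 14.2 to 27.7). The CD4 T gate had 3.33% and 4.23%, the CD8 T gate 0.654% and 4.35%, the stromal gate 2.08% and 0%, and the ILC3 gate 8.16% and 17.2%. In replicate 2 the interval of the gamma-delta T17-like cells covers the share of the ILC3 gate, whereas in replicate 1 it lies far above it.

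By level, Il17a stood at 1134 CPM (counts scaled to the library total) in replicate 1 and 890.2 in replicate 2. The CD4 T gate stood at 37.9 and 119, the CD8 T gate at 15.2 and 33.5, and the ILC3 gate at 109 and 345. The gamma-delta T17-like cells were the highest in each replicate. Il17a was given as a marker of the cell type, so its level is no independent support for the name. The log2 fold change was 4.04 (SE 0.41) against the CD4 T gate, 5.66 (SE 0.49) against the CD8 T gate and 2.50 (SE 0.38) against the ILC3 gate, with edgeR adjusted p-values of 5.91e-05, 2.62e-05 and 0.00125. Against the ILC3 gate it was 3.36 in replicate 1 and 1.36 in replicate 2 taken alone, and without the replicate block it was 2.16 (edgeR adjusted p 0.13).

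A few cells held most of the Il17a counts. The tenth of the cells with the highest counts, 34 cells in replicate 1 and 14 in replicate 2, held 63.3% and 89.5% of the Il17a counts of the gamma-delta T17-like cells, and the single highest cell had 94 reads in replicate 1 and 43 molecules in replicate 2. Seen over all kept cells, the gamma-delta T17-like cells were 141 of the 419 Il17a-positive cells in replicate 1 (33.7%) and held 48.6% of its reads. In replicate 2 they were 27 of 612 (4.41%) and held 6.15% of its molecules. The share of the Il17a signal that came from them thus differed widely between the replicates, as did the number of cells in the ILC3 gate.

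Il17f, the neighbouring gene for a related cytokine, followed Il17a less closely. It was found in 19.3% of the cells in replicate 1 and 6.72% in replicate 2, against 20.6% and 41.5% of the ILC3 gate and 1.31% and 3.48% of the CD8 T gate. In replicate 2 the stromal gate, whose cells were deeper, had 9.68%, so the share there did not exceed it. The 9 gamma-delta T17-like cells with Il17f in replicate 2 held 57 molecules, with a median of 6 and a highest count of 22. Il17f rose against the CD4 T and CD8 T gates, by 2.64 and 4.66 on the log2 scale (edgeR adjusted p 0.00285 and 0.000327). Against the ILC3 gate the difference was -0.51 (edgeR adjusted p 0.549), with 0.38 in replicate 1 and -1.99 in replicate 2.

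Both genes lie on chromosome 1, and within the cells Il17f was found more often where Il17a had a count. Of Il17a-positive cells, 31.9% in replicate 1 and 25.9% in replicate 2 had an Il17f count, against 10.3% and 1.87% of Il17a-negative cells. In replicate 2 these were 7 of 27 and 2 of 107 cells. The Il17a-positive cells were deeper (median 4811 reads and 2033 molecules, against 4429 and 1712), and the part of depth was not tested. The promoters are shown to compare the windows before both starts, searched for the nuclear receptor half-site AGGTCA. Capitals mark that half-site or its reverse complement TGACCT, sought on both strands. The sequences run from 250 bases before the RefSeq start to 50 after it, on the gene's own strand, and come from RefSeq on GRCm38.p6. For Il17f that start lies inside the gene span of the GENCODE annotation, chr1:20777146-20790617, which includes a transcript that begins further upstream, and its start was not searched.
Il17a, chr1:20730655-20730954, plus strand: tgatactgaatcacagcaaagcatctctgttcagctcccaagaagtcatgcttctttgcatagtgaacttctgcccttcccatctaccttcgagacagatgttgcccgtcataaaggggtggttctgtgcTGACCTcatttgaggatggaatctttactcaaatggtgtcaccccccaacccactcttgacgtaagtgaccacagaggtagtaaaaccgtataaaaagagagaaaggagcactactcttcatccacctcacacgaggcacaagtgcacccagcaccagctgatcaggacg
Il17f, chr1:20784221-20784520, minus strand: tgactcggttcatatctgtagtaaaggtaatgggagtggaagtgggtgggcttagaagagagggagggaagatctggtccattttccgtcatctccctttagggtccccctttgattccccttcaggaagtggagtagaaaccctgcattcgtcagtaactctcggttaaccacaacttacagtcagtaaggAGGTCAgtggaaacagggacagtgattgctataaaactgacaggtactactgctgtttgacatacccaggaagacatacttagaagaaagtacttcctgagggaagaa
Each window held 1 half-site, beginning 120 bases before the RefSeq start in Il17a and 58 bases before it in Il17f. Of all 32851 promoters of the same length, 5340 (16.3%) hold such a half-site, so the match is a description of these letters and no evidence of binding. The AP-1 sites TGACTCA and TGAGTCA, which 1709 of all promoters (5.20%) hold, were in neither window.

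Il22, the epithelial-protective cytokine that marks ILC3, was found in 27.1% and 17.2% of the gamma-delta T17-like cells, against 83.2% and 77.8% of the ILC3 gate. The CD8 T gate had 12.4% and 23.5% and the stromal gate 17.2% and 25.8%. In replicate 2 the share was thus no higher than in these gates, both of deeper cells. The 23 gamma-delta T17-like cells with Il22 there held 272 molecules, with a median of 3 and a highest count of 66. The level fell by 2.76 on the log2 scale (SE 0.29) against the ILC3 gate, with an edgeR adjusted p of 0.000111 and values of -2.89 and -2.58 in the 2 replicates. Against the CD4 T gate Il22 rose by 1.31 (edgeR adjusted p 0.00926).

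Other cytokines gave a mixed picture. Csf2, which encodes GM-CSF, a growth factor for myeloid cells, had a count in 11.9% of the cells in each replicate, against 1.01% and 1.45% of the CD4 T gate, and rose by 3.26 (SE 0.34, edgeR adjusted p 7.89e-05). Areg, the gene of the repair factor amphiregulin, was found in 5.65% and 8.96%, against 1.45% and 1.72% of the CD4 T gate and 2.35% and 6.75% of the ILC3 gate, and rose against both, by 2.96 and 1.47 (edgeR adjusted p 0.000252 and 0.0162). Ifng, the gene of the type 1 cytokine interferon-gamma, was found in 2.08% of the cells in replicate 1 and 12.7% in replicate 2, against 25.9% and 30.9% of the CD4 T gate, and it fell by 3.18 (edgeR adjusted p 0.0173).

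Of 18 cytokine and growth factor genes tested, 6 rose and 6 fell against the CD4 T gate, 7 rose and none fell against the CD8 T gate, and 2 rose and 7 fell against the ILC3 gate. The median log2 fold changes were 0.65, 0.93 and -0.87, beside -0.05, -0.00 and -0.03 over all genes tested. Of those genes, 9.84%, 11.0% and 9.35% passed. The 7 genes that fell against the ILC3 gate were Il22, Il2, Vegfa, Tnfsf11, Lta, Tnfsf8 and Hbegf. Tnfsf11, which encodes the lymphoid organ inducer RANKL, was found in 24.4% and 23.1% of the gamma-delta T17-like cells, against 48.0% and 85.2% of the ILC3 gate. Hbegf, which encodes an epidermal growth factor family member, fell against the ILC3 gate by 1.18 (edgeR adjusted p 0.0272) but rose against the CD4 T gate by 2.45 (edgeR adjusted p 0.000665).

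The 3 lymphocyte gates all leave out cells with Trdc. Among transcription factors, Sox13 was rare in each of these gates and not in the gamma-delta T17-like cells. It was found in 65 of 336 cells in replicate 1 (19.3%) and 22 of 134 in replicate 2 (16.4%). The CD4 T gate had 1 cell in each replicate, the CD8 T gate 0 of 306 and 1 of 115, and the ILC3 gate 1 of 637 and 3 of 1881. Stromal cells had a Sox13 count in 10.4% and 12.9%, and all other kept cells together in 1.53% and 0.412%. Cells just outside the rule, with Trdc and none of the 3 markers, had it in 18 of 151 (11.9%) and 1 of 36 (2.78%). Against all other kept cells its log2 fold change was 4.64 (SE 0.34), with 3.89 and 5.20 by replicate (edgeR adjusted p 2.89e-38). This fold change was the largest among the leading genes shown there. That comparison has 1 residual degree of freedom, and with the replicate block left out no gene rose past the threshold in it.

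Zbtb16, the gene of PLZF, the factor of innate-like T cells, was found in 19.9% and 24.6% of the cells, against 1.45% and 1.19% of the CD4 T gate, 1.96% and 1.74% of the CD8 T gate, and 9.89% and 6.80% of the ILC3 gate. Stromal cells had it in 9.11% and 41.9%. Zbtb16 rose against each of the 3 lymphocyte gates, by 4.57 (SE 0.34), 4.32 (SE 0.41) and 1.97 (SE 0.28), with edgeR adjusted p-values of 1.22e-05, 3.32e-05 and 0.000782.

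Maf, the gene of c-MAF, was found in 74.4% and 68.7% of the cells and in 14.7% and 24.3% of the CD8 T gate, from which it rose by 2.70 (edgeR adjusted p 2.44e-05). It did not differ past the threshold from the CD4 T gate (-0.55, edgeR adjusted p 0.116) or the ILC3 gate (0.48, edgeR adjusted p 0.183). Rora, a nuclear receptor gene of type 17 and innate lymphocytes, was found in 92.0% and 88.8%, and rose against the CD4 T and CD8 T gates, by 1.10 and 1.54, but not past the threshold against the ILC3 gate. Id3 was found in 4 and 1 of the cells and fell against every gate, and Tcf7, which encodes the T-lineage factor TCF-1, fell against the CD8 T and ILC3 gates by 1.03 and 0.96 (edgeR adjusted p 0.00348 and 0.00504). Of 27 factors tested, 6 rose and 4 fell against the CD4 T gate. The numbers were 8 and 2 against the CD8 T gate, and 6 and 4 against the ILC3 gate. In these comparisons 9.84%, 11.0% and 9.35% of all genes tested passed.

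Il1r1 and Il23r, receptors for cytokines that act on type 17 cells, were higher in the gamma-delta T17-like cells than in both alpha-beta T-cell gates, and did not differ past the threshold from the ILC3 gate. Il1r1, the IL-1 receptor gene, was found in 57.4% and 46.3% of the cells, against 4.63% and 8.72% of the CD4 T gate, 4.58% and 8.70% of the CD8 T gate, and 55.9% and 71.8% of the ILC3 gate. It rose by 3.37 and 3.81 against the T-cell gates (edgeR adjusted p 7.73e-05 and 7.17e-05), and the difference from the ILC3 gate was 0.05 (SE 0.31, edgeR adjusted p 0.952). Il23r, a subunit of the IL-23 receptor, was found in 30.7% and 19.4%, against 4.20% and 6.47% of the CD4 T gate and 29.2% and 42.8% of the ILC3 gate, with log2 fold changes of 2.42 (SE 0.24, edgeR adjusted p 5.95e-05) and -0.19 (SE 0.22, edgeR adjusted p 0.91). Against the CD8 T gate, with 3.27% and 3.48%, it rose by 3.37 (edgeR adjusted p 3.03e-05).

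Il18r1, the IL-18 receptor gene, was found in 51.5% and 44.0% of the cells, against 11.8% and 8.70% of the CD8 T gate and 36.6% and 27.4% of the ILC3 gate, and rose against both, by 2.73 and 1.18 (edgeR adjusted p 3.03e-05 and 0.0036). Il18r1 did not differ past the threshold from the CD4 T gate, which had 46.3% and 48% (-0.14, SE 0.21, edgeR adjusted p 0.743). Il18rap, the other chain of that receptor, was found in 13.4% and 14.2% of the cells, against 29.2% and 39.4% of the CD4 T gate, and fell by 1.37 (edgeR adjusted p 0.00231). Il12rb2, the subunit of the IL-12 receptor that type 1 cells carry, was found in 2.08% and 5.22%, against 55.6% and 58.7% of the CD4 T gate, and fell by 5.08 (SE 0.64, edgeR adjusted p 0.000253). Il7r, needed for lymphocyte survival, was found in 90.8% and 82.1%, and Kit, the stem cell factor receptor of ILC3, in 11.3% and 12.7%, against 53.8% and 71.0% of the ILC3 gate. Kit fell against the ILC3 gate by 2.41 (edgeR adjusted p 3.68e-05). Il21r rose by 4.73 against that gate, where 1.88% and 0.957% of cells had it, and was lower in the CD4 T comparison, at -1.80, where 54.1% and 51.9% of the gate had it (edgeR adjusted p 5.5e-06 and 0.000557). In the gamma-delta T17-like cells it was 13.7% and 20.9%.

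Over the 21 cytokine receptor genes tested, 6 rose and 4 fell against the CD4 T gate. Against the CD8 T gate 11 rose and 2 fell, and against the ILC3 gate 4 rose and 1 fell. Over all 9892 genes tested, 9.84%, 11.0% and 9.35% passed in these comparisons.

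Genes of migration gave one chemokine receptor that was higher than in every gate. Ccr2, which draws cells to inflamed tissue and is known on circulating IL-17-producing gamma-delta T cells, was found in 37.5% and 44.8% of the cells. The CD4 T gate had 17.9% and 12.7%, the CD8 T gate 17.6% and 6.09%, and the ILC3 gate 6.59% and 8.56%. The log2 fold changes were 1.57 (SE 0.34), 2.10 (SE 0.37) and 3.13 (SE 0.36), with edgeR adjusted p-values of 0.0105, 0.0029 and 0.000186. At 1500 counts per cell the shares were 26.0% and 42.7%, still the highest in each replicate.

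Ccr6, the receptor for the epithelial chemokine CCL20, was found in 11 and 4 cells (3.27% and 2.99%), against 13.0% and 29.3% of the ILC3 gate, from which it fell by 2.18 (edgeR adjusted p 0.0176). Cxcr6, a receptor of tissue-resident lymphocytes, was found in 61.6% and 79.1%, and rose against the CD4 T and CD8 T gates by 1.81 and 2.51 (edgeR adjusted p 6.71e-05 and 1.59e-05). Itga4, a subunit of the gut-homing integrin alpha4beta7, was found in 10.7% and 19.4%, less than in all 3 gates, and fell by 1.22, 1.77 and 1.46 (edgeR adjusted p 0.00872, 0.000856 and 0.00293). Itgae, the CD103 gene of intraepithelial cells, was found in 5.36% and 2.99%, against 31.4% and 53.0% of the CD8 T gate. Of 20 homing and retention genes tested, 5 rose and 3 fell against the CD4 T gate. The numbers were 4 and 3 against the CD8 T gate, and 4 and 3 against the ILC3 gate. Among all genes tested, 9.84%, 11.0% and 9.35% passed.

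A list held genes known from innate-like gamma-delta T cells. Of 22 tested, 11 rose and 2 fell against the CD4 T gate (median log2 fold change 1.89). Against the CD8 T gate 16 rose and 2 fell (2.15), and against the ILC3 gate 3 rose and 1 fell (0.13). The shares of all genes tested that passed were 9.84%, 11.0% and 9.35%. Aqp3, which encodes a water and glycerol channel, was found in 12.5% and 15.7% of the cells, against 0.724% and 2.11% of the CD4 T gate and 7.22% and 16.5% of the ILC3 gate. It rose by 4.20 against the CD4 T gate (edgeR adjusted p 5.86e-05) and differed by 0.95 from the ILC3 gate (edgeR adjusted p 0.101). Tmem176a, an ion channel gene of type 17 lymphocytes and myeloid cells, was found in 75.6% and 64.9%, against 11.3% and 15.5% of the CD4 T gate and 80.7% and 93.2% of the ILC3 gate. Cd27, a costimulatory receptor missing from IL-17-producing gamma-delta T cells, was found in 0.893% and 0% of the cells, against 20.3% and 16.5% of the CD8 T gate.

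Genes of receptor signalling and costimulation were lower than in alpha-beta T cells: of 20 tested, 0 rose and 10 fell against the CD4 T gate (median -0.82), 1 rose and 10 fell against the CD8 T gate (median -0.75), and 9 rose and 2 fell against the ILC3 gate (median 1.28). Over all genes tested, 9.84%, 11.0% and 9.35% passed in these comparisons. The ILC3 gate was chosen without counts of Trac, Trdc or CD3 chains, so the rises against it were partly set by the gate. Cd2, an adhesion and costimulation receptor, was found in 1.49% and 0.746% of the cells, against 42.1% and 28.8% of the CD4 T gate, and fell by 4.52 (SE 0.34, edgeR adjusted p 1.22e-05). Cd28, the main costimulatory receptor of alpha-beta T cells, was found in 6.85% and 2.24%, against 62.4% and 38.8%, and fell by 3.93 (edgeR adjusted p 7.74e-06). Lck, the kinase that starts receptor signalling, was found in 12.8% and 8.96%, against 68.2% and 77.4%, and fell by 3.02 (SE 0.26, edgeR adjusted p 2.81e-05).

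Lat, the adaptor below that kinase, did not follow Lck. It was found in 50.6% and 52.2% of the gamma-delta T17-like cells and in 52.0% and 63.9% of the CD4 T gate, with a log2 fold change of -0.02 (SE 0.17, edgeR adjusted p 0.979). Lag3, an inhibitory receptor gene, had no count in the 336 and 134 cells, which allows shares of up to 0.893% and 2.24%, and was found in 5.23% and 12.2% of the CD8 T gate. Icos, an inducible costimulator, was found in 68.8% and 85.8% and rose against the CD8 T and ILC3 gates by 1.10 and 0.98 (edgeR adjusted p 0.00366 and 0.00683).

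Cytotoxic genes were lower than in the CD8 T gate. Of 22 tested, none rose and 13 fell against the CD8 T gate, with a median log2 fold change of -2.34. The 13 include Cd8b1, a CD8 chain gene like Cd8a. That gate asks for Cd8a and the rule excludes it, so the fall of Cd8b1 was partly set by both. Ccl5, a chemokine gene of effector T cells, was found in 14.9% and 17.9%, against 90.5% and 84.3% of that gate, and fell by 4.54 (SE 0.64, edgeR adjusted p 0.00059). The stromal gate, whose cells were deeper, had 20.1% and 9.68%, so in replicate 1 the share did not exceed it. Gzmb, which encodes granzyme B, was found in 15.5% and 19.4%, against 59.2% and 67%, and fell by 2.47 (edgeR adjusted p 0.000219). Against the ILC3 gate 7 of the 22 rose and 2 fell, and against the CD4 T gate 1 rose and 4 fell. Of all genes tested, 11.0%, 9.35% and 9.84% passed against the CD8 T, ILC3 and CD4 T gates.

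Immediate early and heat shock genes, which are also switched on when tissue is digested and cells are sorted, stood between the alpha-beta T cells and the ILC3 gate. Of 16 tested, 6 rose and none fell against the CD4 T gate. Against the CD8 T gate 12 rose and none fell (median 0.80), and against the ILC3 gate none rose and 11 fell (median -0.89). Among all genes tested, 9.84%, 11.0% and 9.35% passed. Jun, an AP-1 subunit gene, was found in 85.1% and 79.1% of the cells, and its log2 fold changes were 1.43, 1.48 and -0.90 (edgeR adjusted p 5.61e-05, 4.27e-05 and 0.00139). Hspa1a and Hspa1b, near-identical HSP70 genes between which reads can be divided, fell against the ILC3 gate by 1.22 and 1.28 (edgeR adjusted p 0.00139 and 0.000368). The mitochondrial share of counts was 7.58% and 6.72% in the median cell, against 6.26% and 5.13% in all other kept cells, and its part in these differences was not tested.

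**Figure D3:**
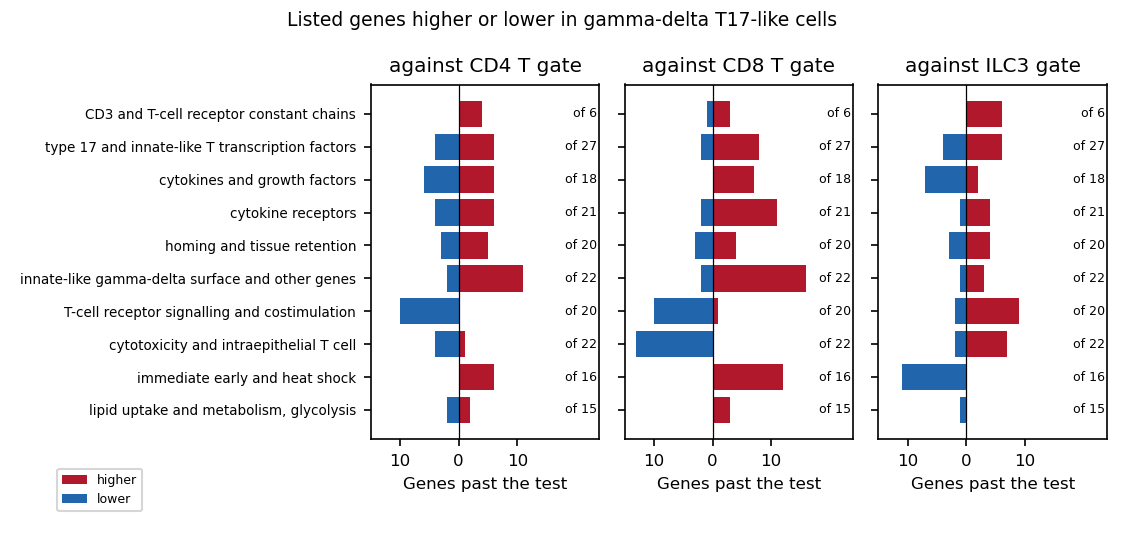
Number of genes of each list (rows) that passed an edgeR adjusted p of 0.05, higher (red, to the right) or lower (blue, to the left) in the gamma-delta T17-like cells, against the CD4 T, CD8 T and ILC3 gates (panels), with the number tested at the right edge. Against the CD4 T and CD8 T gates 10 of 20 receptor signalling genes lie to the left. Against the ILC3 gate 9 lie to the right and 2 to the left. Over all genes tested, 9.84%, 11.0% and 9.35% passed in the 3 panels.

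Against all other kept cells of each library, 369 genes rose and 972 fell of 11578 tested. Of the 12 leading genes that rose, were found in at least 10% of the cells in both replicates and moved the same way in both, 11 are described here: Sox13, Plxnd1, Ly6g5b, Mmp25, Il17a, Actn2, Cd247, Srgap3, Ccr2, Zbtb16 and Abi3bp. Their log2 fold changes ran from 4.64 down to 2.15. Ly6g5b, a gene of the LY6 family, was found in 17% and 13.4% of the cells and 2.37% and 1.92% of the others, and rose by 3.14. Mmp25, a membrane-bound matrix metalloproteinase gene, was found in 29.2% and 31.3%, against 3.65% and 5.54%, and rose by 3.11 (SE 0.26). Actn2, an alpha-actinin gene, was found in 27.4% and 38.8%, against 6.25% and 8.36%, and rose by 2.67 (SE 0.25).

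All of the leading genes named above that rose also rose past the threshold against each gate. For Cd247 against the ILC3 gate this was partly set by the gate. Actn2 rose by 1.81, 1.49 and 3.85 against the CD4 T, CD8 T and ILC3 gates, Ly6g5b by 3.60, 3.12 and 3.17, and Abi3bp, the gene of a matrix-binding protein, by 4.35, 5.39 and 2.35. Srgap3, the gene of a GTPase-activating protein, was found in 30.7% and 15.7% of the cells, against 1.30% and 0.264% of the CD4 T gate, and rose by 5.30 against that gate and 2.16 against the ILC3 gate. For the fold changes of Actn2, Ly6g5b, Abi3bp and Srgap3 given here, the edgeR adjusted p-values ran from 5.94e-06 to 0.0043. The lowest was that of Actn2 and the highest that of Srgap3, both against the ILC3 gate.

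**Figure D4:**
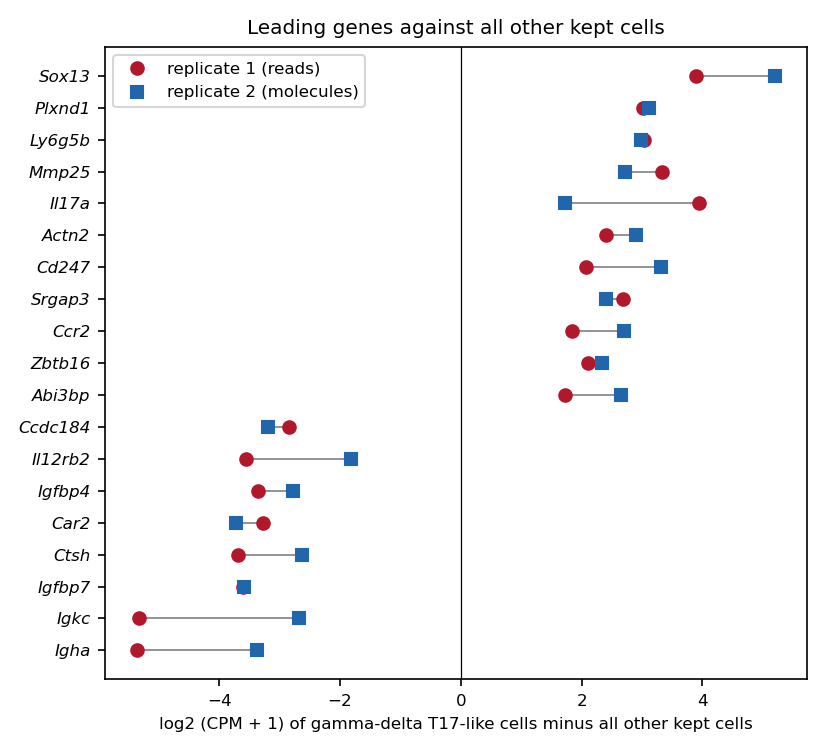
Log2 (CPM + 1) of the gamma-delta T17-like cells minus all other kept cells (x axis), for 11 leading genes that rose and the 8 that fell (y axis), with 1 point for replicate 1 (circle) and 1 for replicate 2 (square). Both points lie on the same side of 0 for each gene; the points of Il17a, at 3.95 and 1.73, lie far apart, and those of Plxnd1, at 3.01 and 3.11, close together.

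The 8 leading genes that fell were Igha, Igkc, Igfbp7, Ctsh, Car2, Igfbp4, Il12rb2 and Ccdc184. Igkc, the kappa light chain gene, was found in 18.8% and 41.8% of the gamma-delta T17-like cells and 23.0% and 38.1% of the others, alike in share, while its level fell by 5.33 and 2.68 on the log2 scale in the 2 replicates. Igfbp7, an insulin-like growth factor binding protein gene, was found in 4.76% and 2.99%, against 16.0% and 33.0%, and Ctsh, a cathepsin gene, in 0.893% and 1.49%, against 10.1% and 14.0%.

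Against the ILC3 gate the genes that fell furthest by the same rule were Asphd2, Myof, Tox2, Ctsh, Igha and Tiam2, most of them with a handful of counts in the gamma-delta T17-like cells, so their shares are given and not their folds. Tox2, which encodes a factor of ILC3 and helper T cells, was found in 1 and 3 of the gamma-delta T17-like cells, against 16.3% and 25.6% of the ILC3 gate. Myof, a membrane repair gene, was found in 0.298% and 2.99%, against 16.8% and 27.4%. The genes that rose furthest against that gate were Sox13, Cd247, Tcrg-C2, Il21r, Actn2 and Ms4a4b. For Cd247 and Tcrg-C2 this was partly set by the gate, which leaves out cells with CD3 chains, Trac or Trdc.

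The comparison with all other kept cells rests on 1 residual degree of freedom, and its adjusted p-values are very small even where the replicates differ, as for Igkc (edgeR adjusted p 4.55e-163, with log2 fold changes of -5.33 and -2.68 by replicate). DESeq2 called 359 genes there, against 1341 by edgeR, and its adjusted p for Igkc was 0.10. The 3 gate comparisons have 3 residual degrees of freedom, and DESeq2 called 784, 915 and 767 genes there, against 973, 1084 and 925.

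Within the cells, those with and without Trdv4 differed in another receptor gene in replicate 1. Trdv4 is a gene of the rule, so cells without it had to have Cd163l1 or Blk, whereas cells with it did not. The groups were thus chosen differently, and the part of this in the shares here and below was not tested. 5830411N06Rik, which encodes SCART2, a relative of Cd163l1, was found in 71 of 209 Trdv4-negative cells in replicate 1 (34.0%) and 3 of 51 in replicate 2 (5.88%). Of Trdv4-positive cells, 2 of 127 (1.57%) and 1 of 83 (1.20%) had it, and of Tcrg-V6-positive cells 0 of 18 and 0 of 13. The gene was thus rare where Trdv4 was found in both replicates, and over all the cells it was found in 21.7% in replicate 1 and 2.99% in replicate 2, against 2.80% and 2.92% of all other kept cells. In replicate 2 its share was that of the other cells.

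Cells with Trdv4 also had more Zbtb16, in 30.7% and 28.9%, against 13.4% and 17.6% of those without. Ccr2 was found in 53.5% and 45.8%, against 27.8% and 43.1%. Il17a was found in 42.5% and 22.9% of cells with Trdv4 and 41.6% and 15.7% of those without. Il17f was found in 11% and 7.23%, against 24.4% and 5.88%, so its order differed between the replicates. Median depth was 4867 reads and 1773 molecules with Trdv4, and 4518 and 1658 without. These cells come from 2 libraries, so the shares are a description and carry no test.

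Cells with and without an Il17a count were compared for other type 17 genes, as a description with no test. Il23r was found in 34.8% and 37.0%, against 27.7% and 15% of cells without Il17a. Il1r1 was found in 63.1% and 55.6%, against 53.3% and 43.9%. The direction was the same in both replicates for both genes. Il22 was found in 21.3% and 37.0%, against 31.3% and 12.1%, so its order differed between the replicates. The Il17a-positive cells were also deeper, with a median of 4811 reads and 2033 molecules against 4429 and 1712, and the part of depth in these differences was not tested. Cells with Ccl5 or Gzma numbered 66 (19.6%) and 29 (21.6%), and Il17a was found in 36.4% and 6.90% of them.

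Markers of other cell types were summed over fixed lists, per 10000 counts. The 10 ILC3 markers summed to 23.2 and 24.3 in the gamma-delta T17-like cells, between the 90.6 and 118 of the ILC3 gate and the 5.28 and 14.1 of the CD8 T gate, and all other kept cells had 35.6 and 80.6. The list holds the gene that defines the ILC3 gate, so the sum of that gate was partly set by the gate. Ncr1 was at 0 in the gamma-delta T17-like cells of both replicates. At least 2 of these markers were found in 62.8% and 40.3% of the gamma-delta T17-like cells and in 40.1% and 70.2% of all other kept cells, so the order differed between the replicates.

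The 9 alpha-beta T-cell markers summed to 15 and 19.6, against 22.4 and 17.7 in all other kept cells, lower in replicate 1 and higher in replicate 2. Cd4 and Cd8a are in that list and are 0 by the rule, and Cd6 was at 0 in replicate 2. The 7 B-cell and plasma cell markers summed to 1.17 and 9.16, against 42.0 and 61.3 in all other kept cells, with Ms4a1 and Mzb1 at 0 in both replicates. At least 2 of them were found in 1.79% and 8.21% of the gamma-delta T17-like cells and 2.23% and 5.64% of the others. Cd79b, the gene of a B-cell receptor subunit, was found in 4.46% and 5.22% of the cells, against 1.5% and 1.79% of the others, and rose by 1.86 (SE 0.54, edgeR adjusted p 0.00807). It also rose against the CD4 T gate (edgeR adjusted p 0.00108), where 0.434% and 0.132% of cells had it, and not past the threshold against the CD8 T and ILC3 gates. The part of these markers in the results was not tested.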

How the data were processed

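Counts per gene and cell are those the authors deposited, in reads for replicate 1 and molecules for replicate 2. Per the file headers, BD's Rhapsody whole transcriptome pipeline made them, in version 1.8 for replicate 1 and 1.9.1 for replicate 2, on GRCm38 with GENCODE M19. The submitters' processing notes name HISAT2 2.0.5 and Bowtie2, and mm10 and GRCm38.p6. The deposited tag calls gave the cells of each sample: tag 8 in replicate 1 (5302 of 18635 cells; the sample characteristics name tag 4, to which no cell was assigned) and tag 12 in replicate 2 (5010 of 19173). The 7 other sample tags (4 and 3 by replicate), the multiplets (815 and 1997 cells) and the undetermined cells (1450 and 239) were not used. Doublets within a tag were not removed: Scrublet, in scanpy 1.11.5, marked 2 and 30 cells, 0.0396% and 0.601%. The kept cells of the replicates shared 33 cell barcodes, none among the gamma-delta T17-like cells.

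Counts were summed per replicate and class and tested in edgeR 4.0.16 (R 4.3.3) by the quasi-likelihood F test, with a replicate block, TMM scaling, genes kept by filterByExpr (a minimum count of 10 and a total of 15) and Benjamini-Hochberg adjustment at 0.05. Only the 19380 genes in both tables entered. CPM (counts scaled to the library) are over the TMM-scaled totals of the genes tested, and a fold change of 1 replicate alone is of CPM + 1. The gamma-delta T17-like cells held 1666821 reads and 252237 molecules in all. The sums of a replicate come from the same library, and their deviations correlated (lowest 0.193, median 0.297 over 12 pairs), which is why the block is in the design. Trdc, Cd163l1, Blk, Trdv4, Cd8a and Cd4 were left out of every test, and Trac, Cd3d, Cd3e, Cd3g and the marker gene of the ILC3 gate, which is not reported here, out of the gate tests. In simulated data, 85% to 97% of genes changed by 2 on the log2 scale and 34% to 49% of those changed by 1 were recovered. The simulated coefficient of variation was 0.16, below the fitted 0.18 and 0.19. Only genes with many counts were changed, so recovery of genes found in few cells was not tested. The cells and gene lists were chosen with earlier results of these data known, and the stromal gate was added after the data were seen. Named genes are those of the lists and, beyond them, the largest changes in each direction that passed, moved the same way in both replicates and were detected in at least 10% of the cells of the higher class in both. DESeq2 1.42.0, its size factors, no filter, no block, each replicate alone and other rules for the cells were alternatives.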

Additional observations from a re-analysis of the deposited data

How the results depend on the processing

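With the replicate block left out, so that the spread between reads and molecules enters the error, the genes that passed were 2 against all other kept cells, where 1579 had an unadjusted p under 0.05, and 207, 295 and 170 against the CD4 T, CD8 T and ILC3 gates. Of 111 gene results, 46 then missed the threshold and 63 kept their call. Each replicate pairs its classes within 1 library, which is the pairing the block stands for. DESeq2 passed 359 genes against all other kept cells, and 100 of the 111 gene results kept their call. With cells lacking Trac, Trbc1 and Trbc2 only, 152 genes passed against all other kept cells and 606 against the ILC3 gate. The share of kept cells moved with the rule in replicate 1 to 3.54% (2 of 3 markers), 9.64% (Trdc alone), 0.970% (no alpha-beta chain) and 4.85% (cells thinned to 1500 counts), and in replicate 2 to 1.98%, 3.41%, 0.220% and 2.16%. In replicate 1, thinning moved the share with Il17a to 34.0% and with Tcrg-C1 to 71.3%, and 2 of 3 markers moved the latter to 92.2%. Directions turned for Il17f against all other kept cells (-0.21 with no block, -0.37 with 2 of 3 markers, -0.83 with no alpha-beta chain; -1.42 without replicate 1 and 1.73 without replicate 2), for Il1r1 against them without replicate 1 (-0.036; 1.60 without replicate 2) and against the ILC3 gate with no block (-0.059; -0.52 without replicate 1 and 0.39 without replicate 2), and, with no alpha-beta chain, for Il7r against all other kept cells (-0.091), the CD4 T gate (-0.27; -0.20 without replicate 1 and 0.59 without replicate 2) and the ILC3 gate (-0.16). The cause was not tested. With 1 replicate alone, 177 gene values moved by at most the SD between replicates and 44 by more. The remaining 1, which had passed the threshold, changed sign (Il1r1, above). That SD comes from the same replicate values, so the 177 say little about agreement between replicates. They include Il17f against all other kept cells at both -1.42 and 1.73. DESeq2 size factors passed 1387, 985, 1086 and 930 genes and no filter 1265, 1286, 1373 and 1259, and a Trdc minimum of 2 counts changed no gene's call. With 2 libraries, and 134 cells in replicate 2, genes found in a few cells give no reliable fold.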

Other observations

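Genes of lipid uptake, lipid metabolism and glycolysis formed another list. Of 15 tested, 2 rose and 2 fell against the CD4 T gate, and 3 rose and none fell against the CD8 T gate. Against the ILC3 gate none rose and 1 fell. Over all genes tested, 9.84%, 11.0% and 9.35% passed in these comparisons. Hk2, which encodes the first enzyme of glycolysis, was found in 56.5% and 46.3% of the cells, against 17.4% and 26.7% of the CD4 T gate and 68.3% and 77.5% of the ILC3 gate. It rose against the CD4 T gate by 1.86 and fell against the ILC3 gate by 0.81, with edgeR adjusted p-values of 0.000289 and 0.0419.

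A list of 8 cell cycle genes summed to 1.76 and 1.03 per 10000 counts in the gamma-delta T17-like cells and 2.46 and 4.14 in all other kept cells, and 6 and 1 of the cells had 2 or more of these genes. Markers of ILC2 summed to 1.06 and 1.59, with Il5, Il13 and Hs3st1 at 0 in both replicates, and markers of mast cells to 1.81 and 0.951.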
